A study of Homo sapiens with 15 samples.

Results

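EGI-1, a human extrahepatic cholangiocarcinoma (CCA) cell line, was compared as xenograft tumors with HuCC-A1 and HuCC-T1, both intrahepatic CCA lines. The comparison was made to find genes in which the extrahepatic model differed from both intrahepatic models. Members of the comparison were the genes in which all 5 EGI-1 tumors lay above, or all 5 below, every one of the 10 tumors of the other models, and they are called separated genes here. There were 3698 of them among 21019 genes tested, 1954 higher and 1744 lower in EGI-1, with a further 142 among the genes that were too low to be tested. All 15 tumors were cell line-derived xenografts (CDX) in NRG mice, which are non-obese diabetic, Rag1-/- and IL2Rgc-/-, were 8 weeks old, and lack T, B and natural killer cells but keep other host cells, among them vessels and fibroblasts. Every mouse had received phosphate-buffered saline (PBS), the vehicle of the study, for 4 weeks in the EGI-1 model and 6 weeks in the HuCC-A1 model, and the labels give no duration for HuCC-T1. Each model is 1 cell line, so anatomical origin, cell line and time on vehicle cannot be told apart, and p-values cover only how tumors of the same line vary.

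CCA arises from the epithelium of the bile ducts. Intrahepatic tumors form along the ducts within the liver, and extrahepatic tumors form in the large ducts outside it, whose epithelium is rich in mucus-secreting glands and borders on gut and pancreas in development. HOX genes mark position along the body axis, zinc finger genes of the KRAB family silence transposable elements and other genes, and integrins, collagens and laminins set how an epithelial tumor holds on to its matrix.

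Total counts were between 34239460 and 44067878 in EGI-1, between 20001412 and 33585265 in HuCC-A1, and between 26163778 and 33984103 in HuCC-T1, so every EGI-1 library was deeper than every other library. Mitochondrial genes took 3.94 to 5.64% of the counts in EGI-1 and 4.5 to 11.3% in the other models. After all libraries were thinned to the smallest total, 1823 genes were separated as higher and 1652 as lower. Leaving out each tumor in turn gave 2030 to 2290 higher and 1762 to 2019 lower genes. Values per tumor are counts per 1000000 (CPM) over scaled library totals, and a log2 fold change is EGI-1 against the mean of both other models on the log2 scale, with each model weighted equally and ± giving its standard error.

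By edgeR's quasi-likelihood test at an adjusted p of 0.05, 5561 genes (26.5% of those tested) were higher and 5757 (27.4%) were lower in EGI-1 than in the mean of the other models. Of these called genes, 1381 had an EGI-1 mean that lay between the means of HuCC-A1 and HuCC-T1, and 7621 were not separated. The separated genes made up 9.30% of the tested genes in the higher and 8.30% in the lower direction. Their fold changes and p-values come from the values that chose them and are given as a description. The test called 1953 of the 1954 higher and all 1744 lower ones in the same direction. Its p-values are thus no separate support for separated genes. The same rule applied to HuCC-A1 gave 2448 genes above and 2064 below all other tumors, and applied to HuCC-T1 it gave 1792 and 1550, so EGI-1 did not stand apart by the number of its genes. Protein-coding genes made up 83.6% of the separated genes that were higher and 80.8% of those that were lower, against 70.8% of all tested genes. The gap, the distance in log2(CPM + 0.5) between the nearest tumors of EGI-1 and of the other models, had a median of 0.37 among higher genes and reached at least 2 in 124 of them, and it was under 0.1 in 337. Among lower genes the median gap was −0.30, with 128 genes at a distance of at least 2 and 383 under 0.1.

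Membership at the edge of the rule was decided by small distances. CLINT1, just inside, had a highest EGI-1 value of 134.447 CPM below a lowest other value of 134.452 CPM. KDELR1, just outside, had a lowest EGI-1 value of 220.378 CPM and a highest other value of 220.391 CPM. HuCC-A1 and HuCC-T1 also differed from each other by the test in 972 separated genes higher in EGI-1 (49.7%) and 814 lower ones (46.7%), lower shares than the 56.3% of all tested genes. The rule used the same tumors, so these shares are a description.

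The separated gene with the widest gap was RSPO3, which encodes a secreted R-spondin that strengthens Wnt signaling (chr6:127118604-127197765, plus strand, GRCh38). Its level was 228, 171, 214, 160.0 and 168 CPM in the 5 EGI-1 tumors. In HuCC-A1 it had no count in any tumor and in HuCC-T1 it had 1 count over all 5, and the edgeR adjusted p was 9.21e-14. ALOX5, the 5-lipoxygenase that starts leukotriene synthesis (chr10:45374176-45446119, plus strand), was at 65.2, 82.3, 86.2, 73.6 and 96.5 CPM in EGI-1 and at most 0.184 CPM elsewhere. CELF2, an RNA-binding regulator of splicing, was at 84.7, 86.6, 92.3, 107 and 103 CPM in EGI-1 and at most 0.635 CPM elsewhere, with a log2 fold change of 8.81 ± 0.28. No tumor of the other models came near the EGI-1 range of these genes. KRT20, a keratin of intestinal and urothelial epithelium (chr17:40875941-40885227, minus strand), was at 714, 653, 601, 599 and 714 CPM in EGI-1. The HuCC-A1 tumors held 8.95, 1.9, 5.3, 8.39 and 6.74 CPM of it and the HuCC-T1 tumors 5.01, 1.04, 1.23, 0.917 and 1.31 CPM, and the log2 fold change was 7.56 ± 0.38 (adjusted p = 5.11e-11). NTSR1, the receptor of neurotensin, averaged 116 ± 47 CPM in EGI-1 (SD, n = 5) and was at most 0.809 CPM in the other tumors. IGF2BP1, an RNA-binding protein of fetal tissue, averaged 63.5 ± 5.86 CPM (SD, n = 5) against at most 0.99 CPM. QPRT, an enzyme of NAD synthesis, averaged 76.3 ± 20.7 CPM (SD, n = 5) against at most 1.23 CPM. The rest of the 15 coding genes with the widest gaps were ZFP30, NLRP2, ZNF518B, HOXB8, TLR4, ZNF114, CCN6 and ZNF528, among which 4 are zinc finger genes.

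In the other direction IGFBP3, a secreted carrier of insulin-like growth factors (chr7:45912245-45921874, minus strand), had the widest gap. It was at 540.1, 1123, 579, 1173 and 866 CPM in HuCC-A1, at 1556, 873, 785, 1064 and 1294 CPM in HuCC-T1 and at 0.122, 0, 0.046, 0 and 0 CPM in EGI-1, where it had 6 counts over all tumors. EFEMP1, the matrix glycoprotein fibulin-3 (chr2:55865967-55924139, minus strand), was at 337 to 493 CPM in HuCC-A1 and 86.6 to 166 CPM in HuCC-T1, and it had 2 counts over the 5 EGI-1 tumors. MSN encodes moesin, which links the actin cortex to the cell membrane (chrX:65588377-65741931, plus strand). It was at 128, 213, 77.3, 86.4 and 88.6 CPM in HuCC-A1 and 438, 476, 477, 504 and 651 CPM in HuCC-T1, and EGI-1 again had 2 counts in all. The ranges of these genes in EGI-1 lay at the limit of detection and far below those of every other tumor. SLITRK6, a neuronal surface protein, was at 0 to 0.46 CPM in EGI-1 and 101 to 283 CPM in the other tumors (log2 fold change −10.69 ± 0.60, adjusted p = 2.43e-10). P3H2, a prolyl hydroxylase of basement membrane collagen, was at 0.023 to 0.302 CPM in EGI-1 and 59.7 to 209 CPM elsewhere (log2 fold change −9.93 ± 0.38). STOM, the membrane protein stomatin, was at 0 to 0.116 CPM in EGI-1 and 37.7 to 347 CPM elsewhere. Others of the 15 were RIMKLB, RAB34, RTL8C, COL4A5, FSTL1, MTAP, RTL8A and SNX2.

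**Figure D1:**
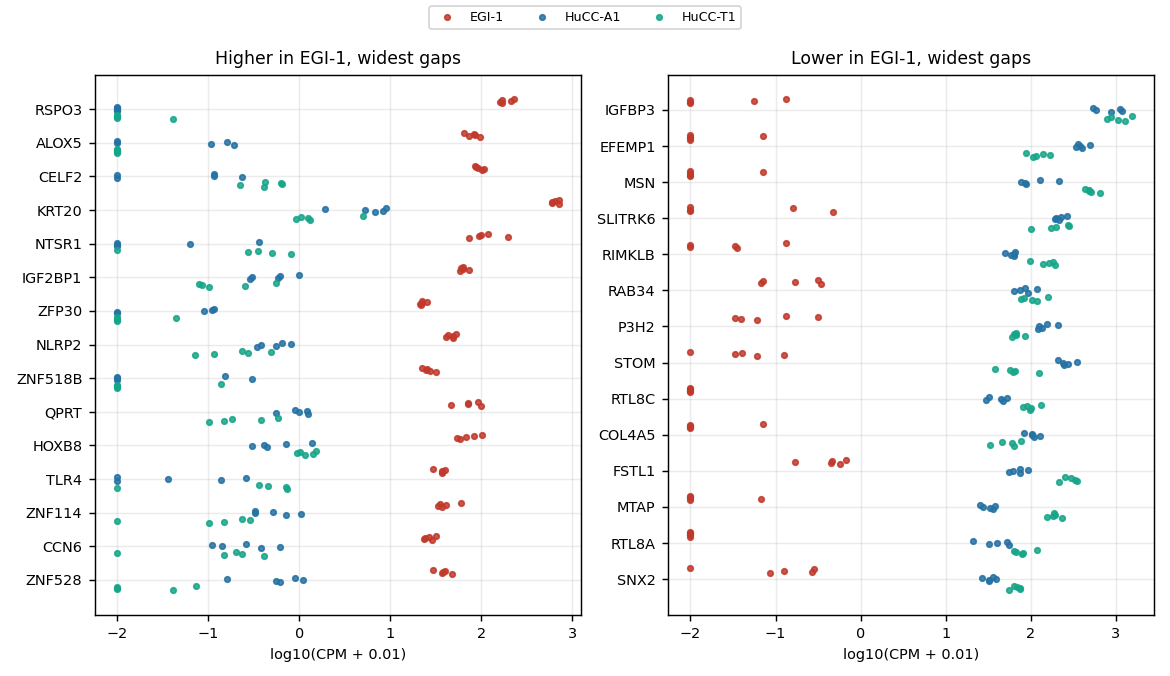
CPM per tumor (log10 axis of CPM + 0.01) of the 15 coding genes with the widest gap in each direction, 1 lower gene aside, with 1 point per tumor and 5 tumors per model. The EGI-1 points lie above all others in the left panel and below all others in the right panel, where IGFBP3 is at 540.1 CPM or more in every HuCC-A1 and HuCC-T1 tumor and is at most 0.122 CPM in EGI-1.

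A promoter window shows the base composition at the start of such genes. The 250 bases upstream of the start are printed for the 2 genes of each direction with the widest gap whose window in RefSeq's promoter table (GRCh38.p14) holds no annotated exon, 5′ to 3′ on the gene's strand and with each CpG, the dinucleotide that can be methylated, in capitals. The window of KRT20 is at chr17:40885243-40885492 on the minus strand and holds 2 CpG, and that of NTSR1 is at chr20:62708586-62708835 on the plus strand and holds 38. The window of MSN is at chrX:65588127-65588376 on the plus strand and holds 5 CpG, and that of COL4A5 is at chrX:108439588-108439837 on the plus strand and holds 8.
KRT20: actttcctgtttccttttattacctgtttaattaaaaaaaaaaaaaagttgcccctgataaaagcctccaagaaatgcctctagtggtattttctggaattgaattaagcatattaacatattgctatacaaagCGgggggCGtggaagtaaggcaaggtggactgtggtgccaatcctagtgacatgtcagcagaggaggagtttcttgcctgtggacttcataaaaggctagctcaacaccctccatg
NTSR1: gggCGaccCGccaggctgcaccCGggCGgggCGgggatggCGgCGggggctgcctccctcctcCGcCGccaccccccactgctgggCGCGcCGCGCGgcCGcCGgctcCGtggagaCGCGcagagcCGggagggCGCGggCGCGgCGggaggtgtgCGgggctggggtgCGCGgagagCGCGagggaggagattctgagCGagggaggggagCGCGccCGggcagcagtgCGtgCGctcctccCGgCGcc
MSN: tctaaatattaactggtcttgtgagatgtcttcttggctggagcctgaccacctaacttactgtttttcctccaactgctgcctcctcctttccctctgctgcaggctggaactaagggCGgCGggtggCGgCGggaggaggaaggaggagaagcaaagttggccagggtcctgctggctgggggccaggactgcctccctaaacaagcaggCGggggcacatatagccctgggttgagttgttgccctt
COL4A5: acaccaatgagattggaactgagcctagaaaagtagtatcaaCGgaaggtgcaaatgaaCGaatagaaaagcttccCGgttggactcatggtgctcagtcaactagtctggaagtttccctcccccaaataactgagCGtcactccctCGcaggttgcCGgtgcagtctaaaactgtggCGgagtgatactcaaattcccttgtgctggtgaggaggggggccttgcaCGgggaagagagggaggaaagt
The NTSR1 window had 82% G and C and a ratio of observed to expected CpG of 0.928, against 41.2% and 0.189 in KRT20, so that genes with the widest gaps had both CpG-rich and CpG-poor starts. In the lower genes the ratio was 0.247 for MSN and 0.501 for COL4A5. Windows with a ratio above 0.6 and over 50% G and C were counted as CpG-rich. They were 70.9% of the 11875 tested coding genes that matched the table, 70.3% of 1280 separated genes higher in EGI-1 and 69.9% of 1141 lower ones. Among separated genes with a gap of at least 2 they were 36 of 76 higher genes (47.4%) and 50 of 86 lower genes (58.1%). These shares are given as a description, and no methylation was measured.

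A stricter rule took genes that were at 1 CPM or more in each tumor on one side and under 0.1 CPM in every tumor on the other. It found 15 genes on in EGI-1 only, 8 of them coding, and 48 genes off in EGI-1 only, 39 of them coding. The coding genes on in EGI-1 only included RSPO3, DEUP1, NDNF, RNF182, ZNF287, ZNF470 and ZNF71. NDNF, a secreted neuron-derived factor, was at 1.58, 1.93, 3.52, 1.74 and 10.8 CPM and had 2 and 2 counts. Genes off in EGI-1 included MGMT, which repairs alkylated guanine, at 24.9 to 34.5 CPM in HuCC-A1, 3.07 to 21.7 CPM in HuCC-T1 and 3 counts in all in EGI-1. THBD, the endothelial and epithelial anticoagulant thrombomodulin, was at 4.76 to 8.18 and 2.66 to 9.33 CPM and had 3 counts in EGI-1. FOXL2, a forkhead factor of the ovary, was at 2.77 to 4.9 and 1.07 to 2.43 CPM and had no count in EGI-1. RTL8A, RTL8B and RTL8C, which are near-identical retrotransposon-derived genes next to each other on the X chromosome, were all off in EGI-1, with no count in any of its 5 tumors. Reads may have been split between them, and RTL8C was at 30.1 to 133 CPM in the other tumors. The EGI-1 libraries were the deepest of the 15, which bears on the genes on as well as off in EGI-1, and this rule was not applied to thinned libraries.

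Gene lists are given below by their counts, and pairs of percents in parentheses are the shares of a list's tested genes that were separated as higher and as lower, to be read against 9.30 and 8.30% of all tested genes. Among tested coding genes alone these shares were 11% higher and 9.47% lower. For lists of coding genes the shares of all tested genes are thus a somewhat low measure. Counts of called genes, also those of cell type markers, are to be read against 26.5% called higher and 27.4% called lower among all tested genes. Markers of the tissue of origin divided. Of 20 biliary epithelium markers, 18 were tested, of which 9 were called higher and 3 lower, and 5 were separated as higher and 2 as lower (27.8 and 11.1%). Without HuCC-T1 replicate 3, 5 were called lower, and with the intrahepatic tumors pooled 5 were called higher. The keratins KRT8 and KRT18, the simple epithelial pair, were both higher, and KRT18 was at 3373, 2415, 2558, 3113 and 2034 CPM in EGI-1 against 309.8 to 1511 CPM elsewhere (log2 fold change 2.21 ± 0.25, adjusted p = 1.24e-06). KRT7, the keratin used in the clinic to mark bile duct epithelium, was lower. It was at 79.2, 60.6, 39.1, 59 and 38 CPM in EGI-1, at 1050.1, 1697, 799, 914 and 829 CPM in HuCC-A1 and at 3160.0, 1146, 1621, 2302 and 2303 CPM in HuCC-T1 (log2 fold change −4.76 ± 0.31, adjusted p = 1.65e-09), with no overlap between EGI-1 and the other models. EPCAM, the epithelial adhesion molecule, was at 479.9 to 599 CPM in EGI-1 and 131 to 384 CPM elsewhere (log2 fold change 1.22 ± 0.13). GGT1, a gamma-glutamyltransferase of the bile duct, was at 56.2 to 98 CPM in EGI-1, 0.547 to 2.5 CPM in HuCC-A1 and 22.3 to 45.4 CPM in HuCC-T1. KRT19 was at 8939.6 ± 2089 CPM in EGI-1 (SD, n = 5), 2827 ± 207 CPM in HuCC-A1 and 4864 ± 2331 CPM in HuCC-T1, so a duct keratin was present in all 3 models. SOX9, a duct transcription factor, was at 133 ± 24.8, 43 ± 17.2 and 138 ± 24.9 CPM in the same order.

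HOX genes were the list with the greatest share of separated genes in one direction. Of 29 tested, 24 were called higher and 2 lower in EGI-1, and 11 were separated as higher (37.9%, against 9.30% of all genes) and 1 as lower. The median log2 fold change of the list was 2.88, against −0.03 for all tested genes. With the intrahepatic tumors pooled as 1 group 11 of the HOX genes were called higher, and with at least 10 counts in every library, where fewer were tested, 9 were. In the HOXB cluster all 10 tested genes were called higher and 8 were separated, with a median log2 fold change of 3.33. HOXB8 was at 102, 83.1, 67.8, 54.6 and 59 CPM in EGI-1 and at most 1.53 CPM elsewhere (log2 fold change 6.39 ± 0.26, adjusted p = 4.26e-12). HOXB9 was at 81.4 to 109 CPM in EGI-1 against 6.83 to 13.8 CPM. The posterior gene HOXB13 was at 16.9 to 20.6 CPM in EGI-1 and 2.83 to 5.98 CPM in HuCC-A1 and had no count in HuCC-T1. HOXA10 was at 17.9 to 21.8 CPM in EGI-1, 1.64 to 2.97 CPM in HuCC-A1 and 0 to 0.224 CPM in HuCC-T1. The separated member that was lower was HOXA3, an anterior gene, at 6.89, 7.52, 7.25, 8.87 and 6.34 CPM in EGI-1 and 16.8 to 28.1 CPM elsewhere (log2 fold change −1.59 ± 0.14, adjusted p = 4.92e-08). In the HOXA cluster 7 of 11 genes were called higher and 2 lower, and in the HOXC cluster 6 of 7 were called higher and none was separated.

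Other identity genes did not move one way. Of 32 tested endodermal transcription factors, 13 were called higher and 9 lower, and 7 and 3 were separated (21.9 and 9.38%). PDX1, which patterns the duodenum, pancreas and extrahepatic duct, was at 2.93, 3.81, 3.13, 2.06 and 3.04 CPM in EGI-1 and at most 0.311 CPM elsewhere. NKX6-1, a factor of pancreatic progenitors, was at 0.483 to 1.25 CPM in EGI-1 and had no count in either other model. PROX1, a factor of liver and lymphatic fate, was at 3.14 to 11.2 against 0.138 to 0.745 CPM (log2 fold change 4.20 ± 0.29). FOXA2, a pioneer factor of endoderm, was at 1.52 to 2.97 CPM in EGI-1 and 7.08 to 33.3 CPM elsewhere (log2 fold change −3.13 ± 0.36, adjusted p = 1.39e-06). Among 41 tested gastrointestinal epithelial genes, 18 were called higher and 13 lower, with 3 and 5 separated (7.32 and 12.2%). MUC2, the intestinal gel-forming mucin, was at 14.7 to 38.1 CPM in EGI-1 and 0.20 to 5.84 CPM elsewhere, whereas CLDN18, a claudin of stomach, had 0 counts in EGI-1 and 0.388 to 1.53 CPM elsewhere. PIGR, which carries immunoglobulin A across epithelia, was at 0.116 to 1.99 CPM against 11.8 to 123 CPM (log2 fold change −5.74 ± 0.54), and OLFM4, a marker of crypt cells, was at 0 to 0.138 against 0.919 to 7.0 CPM.

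Epithelial genes were more often higher in EGI-1 and mesenchymal genes more often lower. Of 45 tested epithelial genes, 30 were called higher and 4 lower, and 17 (37.8%) were separated as higher and 3 as lower. Of 47 tested mesenchymal genes and epithelial-mesenchymal transition factors, 6 were called higher and 30 lower, and 2 were separated as higher and 14 (29.8%, against 8.30% of all genes) as lower. LLGL2, a polarity protein of the basolateral membrane, was at 929.5, 847, 905, 996 and 743 CPM in EGI-1 and 128 to 261 CPM elsewhere (log2 fold change 2.33 ± 0.15, adjusted p = 1.45e-09). S100A14, a calcium-binding protein of epithelia, was at 301 to 588 against 27.3 to 152 CPM, and MAPK13, a p38 kinase, was at 258 to 324 against 73.8 to 123 CPM. The transition factor SNAI2 was at 21.8, 16.6, 24.8, 19.2 and 15 CPM in EGI-1 and 28.8 to 121 CPM elsewhere (log2 fold change −1.59 ± 0.27, adjusted p = 8.74e-05). ZEB1, another, was at 0.945 to 2.15 against 3.0 to 12.3 CPM (log2 fold change −1.79 ± 0.32). SNAI1 did not pass the test, with a log2 difference of 0.78 ± 0.51 (adjusted p = 0.205). VIM, the intermediate filament of mesenchymal cells, was at 2.46 to 6.63 CPM in EGI-1 and 51.6 to 651 CPM elsewhere. FSTL1, a secreted follistatin-like protein, was at 0.161 to 0.67 against 55.8 to 345 CPM (log2 fold change −8.31 ± 0.29). An exception among mesenchymal genes was S100A4, a marker of motile cells, at 1947 to 3885 CPM in EGI-1 and 146 to 492 CPM elsewhere.

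Some of those genes are also made by stroma, and the markers of other cell types did not share a direction. Of the 12 markers of fibroblasts and pericytes, 10 were tested, 8 were called lower in EGI-1 and none higher, and their summed level was 76 to 129 CPM in EGI-1, 429.6 to 953 CPM in HuCC-A1 and 828 to 3726 CPM in HuCC-T1, with no marker at 0 in any model. Of the 12 endothelial markers, 8 were tested, 1 was called higher and 5 lower, and their sums were 14.1 to 23.3, 39 to 49.7 and 14.6 to 27.4 CPM, with KDR at 0 in HuCC-T1, so that EGI-1 overlapped HuCC-T1. The count of 1 endothelial marker called higher was 2 without EGI-1 replicate 5, HuCC-T1 replicate 1 or HuCC-T1 replicate 5. Of the 12 leukocyte markers, 8 were tested, 3 were called higher and 2 lower, and they summed to 40.7 to 57.7, 47.4 to 104 and 18.9 to 66 CPM, with TYROBP among those at 0 in EGI-1 and in HuCC-T1. The 12 hepatocyte markers summed to 126 to 195, 355 to 628 and 259 to 467 CPM, with APOA2 and APOC3 at 0 in EGI-1 and in HuCC-T1 and FGB and HP also at 0 in EGI-1. Only 4 of them were tested, of which 3 were called lower, 1 of them separated, and none higher. Markers of Schwann cells and neurons summed to 3.93 to 7.31, 84.7 to 128 and 3.92 to 9.11 CPM (13 markers, SNAP25 among those at 0 in EGI-1). Of these, 8 were tested, 2 were called higher and 3 lower, and 1 was separated as higher. The 9 erythroid markers stayed at or under 2.05 CPM, the 10 of skeletal muscle summed to 17.3 to 55.8, 16.2 to 84.7 and 12.2 to 23.3 CPM, and the 8 of adipocytes to 24.5 to 43.8, 15 to 22.7 and 8.67 to 13.7 CPM. Of 6 tested muscle markers 3 were called higher and none lower, and of 4 tested adipocyte markers 2 were called higher, 1 of them separated, and none lower, with 1 called higher without EGI-1 replicate 3 or 5 and 1 called lower without HuCC-A1 replicate 2. Host cells of these xenografts are mouse cells, whereas the counts are of human genes, and whether mouse reads were removed is not given. RNA of the tumor cells and mouse reads matched to human genes cannot be told apart in these sums. The sums therefore do not measure how many stromal cells a tumor held. In bulk tumors fewer cells of a type and less RNA per cell cannot be told apart either. The part of host or other cells in the separated genes was not tested. POSTN, a stromal matrix protein, was at 3283, 708, 783, 720.2 and 579.8 CPM in HuCC-T1, 0.248 to 0.719 CPM in HuCC-A1 and 0 to 0.0256 CPM in EGI-1.

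Separated genes of the basement membrane were all lower, and those of the interstitial matrix were mixed. Of 29 tested basement membrane genes, 2 were called higher and 13 lower, and 7 (24.1%) were separated, all lower. COL4A5, a chain of type IV collagen on the X chromosome (chrX:108439844-108697545, plus strand), was at 82.6, 103, 102, 127 and 109 CPM in HuCC-A1 and 75.7, 45.3, 59.6, 33.3 and 63 CPM in HuCC-T1 and had 2 counts over the EGI-1 tumors. COL4A6, its head-to-head neighbour, was at 53.8 to 69.1 CPM in HuCC-A1, 1.06 to 4.95 CPM in HuCC-T1 and 0 to 0.302 CPM in EGI-1. FRAS1, which anchors epithelium to the membrane beneath, was at 13.6 to 18.2 CPM in EGI-1 against 971 to 2403 and 44.8 to 61.2 CPM (log2 fold change −4.15 ± 0.22, adjusted p = 1.25e-10). LAMB1 and LAMC1, laminin chains, were separated as lower as well. Of 22 tested integrins, which bind these proteins, 5 were called higher and 8 lower, and 3 were separated, all lower (13.6%). The count of 5 was 3 without EGI-1 replicate 1, HuCC-A1 replicate 1 or HuCC-T1 replicate 1 and with RLE factors, 2 without EGI-1 replicate 3, HuCC-A1 replicate 3 or HuCC-T1 replicate 4, and 0 with the intrahepatic tumors pooled. ITGB4, the laminin receptor of hemidesmosomes, was at 2347 to 3514 CPM in EGI-1 and 765 to 3154 CPM elsewhere (log2 fold change 0.76 ± 0.17, adjusted p = 0.00132) and was not separated, and its call was lost against a fold change of 1.5 (adjusted p = 0.151 by glmTreat). Of 73 interstitial collagens and matrix glycoproteins tested, 23 were called higher and 38 lower, and 7 and 16 were separated (9.59 and 21.9%). MFAP5, a microfibril protein, was at 0 to 0.151 CPM in EGI-1 and 11 to 117 CPM elsewhere, COL5A2, a fibrillar collagen, at 0.96 to 5.22 against 100.2 to 243 CPM. COL9A3, a cartilage collagen, was higher, at 68.8 to 138 against 0.741 to 11 CPM (log2 fold change 4.81 ± 0.44).

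More extracellular proteases and inhibitors were higher than lower. Of 76 tested, 39 were called higher and 20 lower, and 20 (26.3%) were separated as higher and 8 as lower. With the intrahepatic tumors pooled 23 were called higher. KLK5, a trypsin-like kallikrein of skin (chr19:50943303-50953093, minus strand), was at 364, 193, 156, 222 and 146 CPM in EGI-1, 0 to 0.129 CPM in HuCC-A1 and 2.66 to 12.4 CPM in HuCC-T1. KLK6, its neighbour, was at 106 to 255 CPM in EGI-1 against 0 to 0.424 and 9.61 to 20.3 CPM (log2 fold change 6.81 ± 0.29, adjusted p = 5.98e-12). PLAT, the tissue plasminogen activator, was at 1183, 1295, 907, 1382 and 1357 CPM in EGI-1 and 22.9 to 112 CPM elsewhere (log2 fold change 4.53 ± 0.13, adjusted p = 9.21e-14). ST14, PRSS8, TMPRSS2 and TMPRSS4, membrane-bound serine proteases of epithelia, were separated as higher.

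Genes of cell junctions were separated in both directions. Of 42 tested genes of cadherins, desmosomes and gap junctions, 19 were called higher and 12 lower, and 8 and 6 were separated (19 and 14.3%). EVPL, which lines the cornified envelope, was at 689 to 776 against 59.7 to 256 CPM (log2 fold change 2.35 ± 0.22), and MCAM, a melanoma adhesion molecule, was at 64.4 to 80 against 0.776 to 5.54 CPM. DSG3, the desmoglein of stratified epithelium, was at 3.53, 0.514, 2.85, 0.32 and 1.41 CPM in EGI-1, 213, 194, 214, 311 and 239.7 CPM in HuCC-A1 and 58.6, 114, 85.8, 80.9 and 190.2 CPM in HuCC-T1 (log2 fold change −6.50 ± 0.52, adjusted p = 1.91e-08). Among 53 tested genes of squamous and cornified epithelium, 23 were called higher and 15 lower, and 11 and 4 were separated (20.8 and 7.55%). With the intrahepatic tumors pooled 13 of these were called higher. KRT81, a hair keratin whose sequence is close to that of KRT86 and whose counts are therefore uncertain, was at 4585 to 10342 CPM in EGI-1 and 17.1 to 647 CPM elsewhere. TP63, the master factor of stratified epithelium, was at 7.65 to 25.1 CPM in EGI-1 and 64.4 to 169.7 CPM elsewhere. Of 41 claudins and tight junction genes tested, 12 were called higher and 9 lower, with 3 and 4 separated (7.32 and 9.76%), near the shares of all genes. CLDN1, the target of the study's antibody, was at 602, 579, 801, 657 and 824 CPM in EGI-1, 4121, 4814, 3198, 3640.3 and 3444 CPM in HuCC-A1 and 701, 1337, 1088, 1021 and 920.4 CPM in HuCC-T1 (log2 fold change −1.51 ± 0.17, adjusted p = 1.21e-06). It was not separated, because the EGI-1 and HuCC-T1 tumors overlapped, and the fold change was −2.47 against HuCC-A1 and −0.55 against HuCC-T1 (adjusted p = 0.019), comparisons that share the EGI-1 tumors. CLDN12, another claudin, was separated at 31 to 44.9 CPM in EGI-1 and 68.5 to 167 CPM elsewhere. CD81, a tetraspanin, was at 258 to 438 CPM in EGI-1, 94.3 to 131 CPM in HuCC-A1 and 0 to 0.104 CPM in HuCC-T1.

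**Figure D2:**
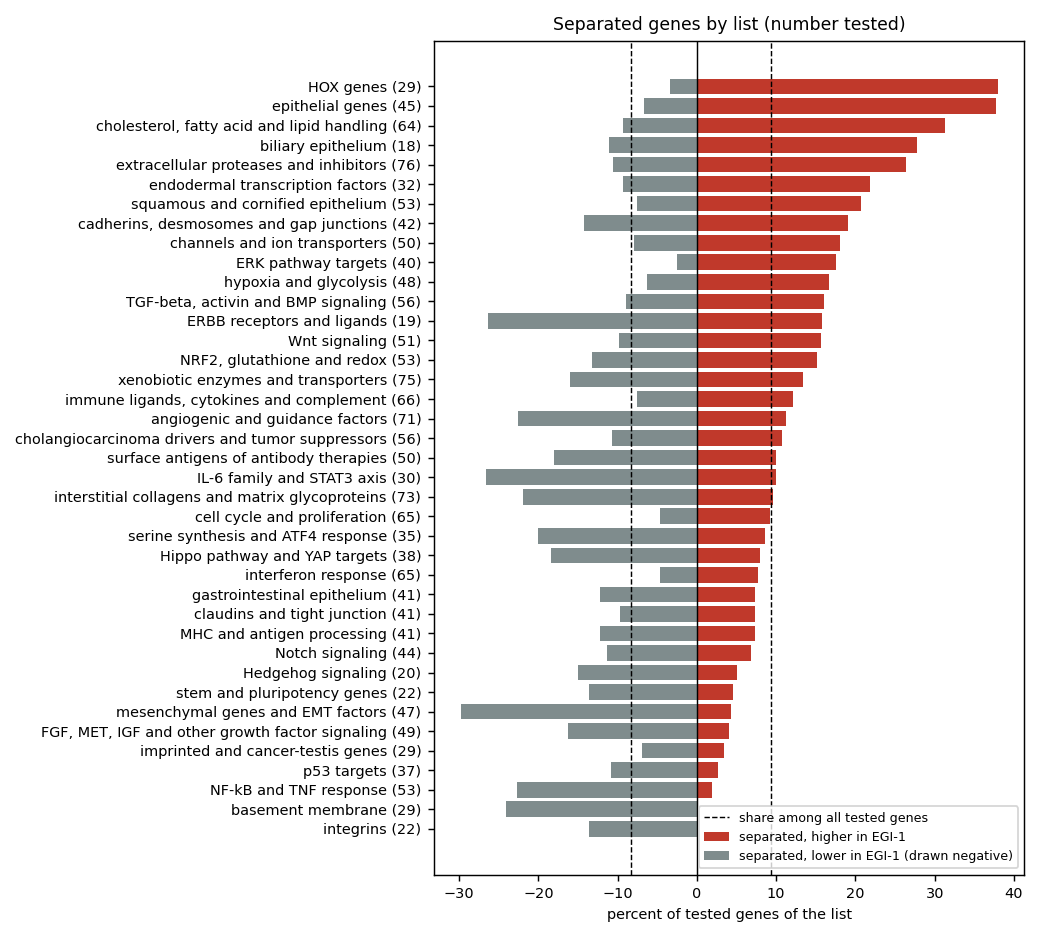
Percent of the tested genes of each list, markers of other cell types aside (x axis), that were separated as higher in EGI-1 (right, positive) or lower (left, drawn as negative), with the share among all 21019 tested genes as dashed lines at 9.30 and 8.30%. HOX genes (37.9%) and epithelial genes (37.8%) reach farthest to the right and mesenchymal genes (29.8%) farthest to the left.

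Wnt and BMP pathway genes were separated in both directions. Of 51 tested Wnt genes, 21 were called higher and 17 lower, and 8 and 5 were separated (15.7 and 9.8%), and RSPO3 had the widest gap. RNF43, a ubiquitin ligase that removes Wnt receptors and that R-spondins restrain, was at 74.9, 58.2, 59.6, 50.6 and 58.1 CPM in EGI-1, 9.07 to 11.3 CPM in HuCC-A1 and 0 to 0.0691 CPM in HuCC-T1. WNT16, a ligand, was at 3.79 to 5.59 against 0.212 to 1.45 CPM (log2 fold change 2.78 ± 0.32), and WNT7A, another, was at 0.046 to 2.07 CPM in EGI-1 and 27.1 to 97.3 CPM elsewhere (log2 fold change −6.15 ± 0.61, adjusted p = 2.49e-07). SP5, TCF7 and LEF1, transcription factors of the pathway, were separated as higher. Of 56 tested genes of TGF-beta, activin and BMP signaling, 22 were called higher and 16 lower, and 9 and 5 were separated (16.1 and 8.93%). ID2, an inhibitor of differentiation that BMP signaling induces, was at 211, 227, 221, 107 and 267 CPM in EGI-1 against 5.64 to 53.3 CPM (log2 fold change 3.24 ± 0.24, adjusted p = 7.68e-09). ID4, of the same family, was at 26.5 to 109.7 CPM in EGI-1, 0.549 to 1.32 CPM in HuCC-A1 and 0 to 0.0311 CPM in HuCC-T1, and ID1 was separated as higher too. INHBB, an activin chain, was at 50.5 to 66.9 against 0.0499 to 12.9 CPM (log2 fold change 4.92 ± 0.40). BMPR1B, a BMP receptor, was at 0.233 to 1.15 CPM in EGI-1 and 9.49 to 33.2 CPM elsewhere (log2 fold change −4.96 ± 0.42).

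Notch genes, which the study followed, were called and separated at shares near those of all genes. Of 44 tested, 14 were called higher (31.8%, against 26.5%) and 15 lower (34.1%, against 27.4%), and 3 and 5 were separated (6.82 and 11.4%). JAG1, a ligand, was at 94.3, 88.9, 109, 78 and 93.1 CPM in EGI-1 and 249 to 675 CPM elsewhere (log2 fold change −2.24 ± 0.20, adjusted p = 8.71e-08). NOTCH1, a receptor, was at 44.6 ± 10.2 CPM in EGI-1 (SD, n = 5), 254 ± 136 CPM in HuCC-A1 and 21.2 ± 12.5 CPM in HuCC-T1, with a log2 fold change of −0.72 ± 0.30 and an adjusted p of 0.0536. EGI-1 was below HuCC-A1 (−2.51, adjusted p = 1.35e-05) and above HuCC-T1 (1.07, adjusted p = 0.0151) in this gene, comparisons that share the EGI-1 tumors. NOTCH1 passed as lower under the replicate block (adjusted p = 0.0388), with RLE factors (0.0458), with at least 10 counts in every library (0.04), with no filter (0.0326) and by DESeq2 (0.0265). It also passed by edgeR without EGI-1 replicate 4, without HuCC-A1 replicate 2 or without HuCC-T1 replicate 1 (adjusted p between 0.024 and 0.0489). DLL1, another ligand, was at 0.0589 ± 0.0626, 84.9 ± 19.3 and 0.147 ± 0.0907 CPM in the same order, with a log2 fold change of −5.79 ± 0.54 (adjusted p = 1.14e-07). NLE1, a regulator of the pathway, differed by −0.24 ± 0.21 on the log2 scale (adjusted p = 0.356). Of 20 Hedgehog genes tested, 4 were called higher and 11 lower, and 1 and 3 were separated (5 and 15%). HHIP, an inhibitor, was at 0.069 to 0.211 CPM in EGI-1 against 2.98 to 55.9 CPM. Of 38 Hippo genes and YAP targets, 8 were called higher and 18 lower, and 3 and 7 were separated (7.89 and 18.4%). YAP1 itself was called lower by a small amount (−0.45 ± 0.13 on the log2 scale, adjusted p = 0.00701), a call that was lost against a fold change of 1.5 (adjusted p = 0.902 by glmTreat). LATS1, its kinase, did not pass the test (−0.07 ± 0.15, adjusted p = 0.732). CRIM1 was separated at 12 to 29.8 CPM in EGI-1 and 67.3 to 157 CPM elsewhere, and VGLL3, a cofactor of TEAD proteins, had 0 counts in EGI-1.

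ERBB receptors and ligands were split between directions, and targets of the ERK pathway were more often higher. Of 19 ERBB receptors and ligands tested, 7 were called higher and 8 lower, and 3 and 5 were separated (15.8 and 26.3%). EGFR was at 89, 88, 94.6, 101 and 107 CPM in EGI-1, 1408, 924, 746, 994 and 1105 CPM in HuCC-A1 and 543, 971, 780.4, 844 and 1029 CPM in HuCC-T1 (log2 fold change −3.27 ± 0.19, adjusted p = 3.61e-10), without overlap. ERBB2 was higher instead, with 399, 455, 400.3, 400.1 and 465 CPM in EGI-1 and 139 to 339 CPM elsewhere (log2 fold change 0.84 ± 0.13, adjusted p = 4.98e-05). TGFA, a ligand of EGFR, was at 157 to 257 against 45.4 to 107 CPM (log2 fold change 1.26 ± 0.15), and NRG1, a ligand of ERBB3, at 0.486 to 2.47 against 11.5 to 73.9 CPM (log2 fold change −4.82 ± 0.58). Of 40 tested ERK pathway targets, 23 were called higher and 3 lower, with 7 and 1 separated (17.5 and 2.5%). With the intrahepatic tumors pooled 15 were called higher, and 13 against a fold change of 1.5, and 5 were called lower without HuCC-A1 replicate 4 or by DESeq2. ETV4, an ETS factor, was at 113, 133, 92.9, 147 and 94.4 CPM in EGI-1 and 8.39 to 54.1 CPM elsewhere (log2 fold change 2.52 ± 0.23), and EMP1, a membrane protein, at 947 to 1396 against 64.8 to 554 CPM (log2 fold change 2.51 ± 0.16). Among 49 genes of FGF, MET, IGF and other growth factor signaling, 10 were called higher and 20 lower, and 2 and 8 were separated (4.08 and 16.3%). FGFR2, a receptor altered in intrahepatic CCA, was at 5.55 to 9.0 CPM in EGI-1 and 17.5 to 43.8 CPM elsewhere (log2 fold change −1.97 ± 0.16, adjusted p = 1.67e-08).

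Inflammatory signaling genes were more often lower than higher. Of 53 tested genes of the NF-kB and TNF response, 8 were called higher and 30 lower, and 1 was separated as higher and 12 (22.6%) as lower, with a list median of −0.98 on the log2 scale. TRAF1, an adaptor of TNF receptors, was at 0.548 to 1.43 CPM in EGI-1 and 4.53 to 38.6 CPM elsewhere (log2 fold change −4.06 ± 0.33). CCL20, a chemokine for lymphocytes and dendritic cells, was at 0.0914, 0.604, 0.161, 0.0291 and 0.46 CPM in EGI-1 and 1.87 to 18.5 CPM elsewhere (log2 fold change −5.08 ± 0.68, adjusted p = 7.58e-06). CXCL6, a neutrophil chemokine, had 0 counts in EGI-1 and was at 0.515 to 0.95 CPM in HuCC-A1 and 12.3 to 49.5 CPM in HuCC-T1. TNFSF15, the separated member that was higher, was at 38.6 to 107 against 2.49 to 34.5 CPM. Of 30 genes of the IL-6 family and STAT3 axis, 8 were called higher and 13 lower, and 3 and 8 were separated (10 and 26.7%), the latter among them receptors. OSMR, the oncostatin M receptor, was at 0.0305, 0.121, 0.782, 1.11 and 0.281 CPM in EGI-1, 148, 235, 92.9, 128 and 122 CPM in HuCC-A1 and 45.8, 79.9, 88.5, 97.3 and 74.3 CPM in HuCC-T1 (log2 fold change −7.79 ± 0.52, adjusted p = 1.9e-09). LIFR, its relative for leukemia inhibitory factor, was at 0 to 0.116 CPM in EGI-1, 36.7 to 63 CPM in HuCC-A1 and 2.38 to 11.4 CPM in HuCC-T1. IL31RA, the partner of OSMR in the interleukin-31 receptor, was at 0.0767 to 0.514 against 2.91 to 13.8 CPM. IL11, a ligand, was higher at 5.42 to 11.1 against 1.62 to 3.1 CPM, and STAT3 did not pass the test (−0.12 ± 0.13 on the log2 scale, adjusted p = 0.431).

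Interferon response genes were separated no more often than all genes. Of 65 interferon response genes tested, 21 were called higher and 11 lower, and 5 and 3 were separated (7.69 and 4.62%). LGALS3BP, a secreted lectin-binding protein, was at 1292 to 1647 against 514 to 1103 CPM (log2 fold change 0.92 ± 0.14), whereas SAMD9L, an antiviral factor, was at 24.6 to 62.8 against 79.2 to 315 CPM (log2 fold change −2.28 ± 0.31). Of 41 MHC and antigen processing genes, 13 were called higher and 17 lower, and 3 and 5 were separated (7.32 and 12.2%). RAET1G, a ligand of the natural killer receptor NKG2D, was at 0.0291 to 0.598 against 1.17 to 26.2 CPM. Of 66 immune ligands, cytokines and complement genes, 18 were called higher and 21 lower, and 8 and 5 were separated (12.1 and 7.58%). IL17RD, a brake on FGF signaling as well as a cytokine receptor, was at 28.7 to 66.3 against 0.35 to 12.3 CPM (log2 fold change 3.83 ± 0.26), and C1R, a complement protease, was at 0.698 to 1.18 against 13.5 to 104 CPM (log2 fold change −5.71 ± 0.52).

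Angiogenic and guidance factors were more often lower than higher among the separated genes. Of 71 tested, 21 were called higher and 31 lower, and 8 and 16 were separated (11.3 and 22.5%). VEGFA, the main vascular growth factor, was at 109, 115, 74.3, 147 and 84.5 CPM in EGI-1 and 272 to 613 CPM elsewhere (log2 fold change −2.01 ± 0.22, adjusted p = 1.01e-06). SEMA3E, a semaphorin, was at 1.77 to 6.73 against 13.9 to 93.8 CPM (log2 fold change −3.37 ± 0.39), NEO1, a netrin and repulsive guidance receptor, at 0.291 to 1.07 against 9.17 to 35.9 CPM, and EFNB1, an ephrin, at 17.7 to 23.8 against 48.7 to 182 CPM. SEMA6C, a semaphorin that was higher, was at 8.38 to 11.2 against 1.26 to 3.24 CPM.

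More lipid genes were higher than lower in EGI-1. Of 64 tested genes of cholesterol, fatty acid and lipid handling, 37 were called higher and 12 lower, and 20 (31.2%) were separated as higher and 6 as lower, with a list median of 0.47. SREBF1, the transcription factor of fatty acid synthesis, was at 407, 415, 422, 382 and 427 CPM in EGI-1 and 53.5 to 188 CPM elsewhere (log2 fold change 1.97 ± 0.15, adjusted p = 8.43e-09). IDI1, an isomerase of the mevalonate pathway, was at 90.5 to 132 against 24.7 to 40.1 CPM (log2 fold change 1.82 ± 0.13). SREBF2, HMGCS1, MVD, FDFT1, LSS, DHCR7 and INSIG1 of the same pathway were also separated as higher, and CYP51A1 was separated as lower. ACSL4, which loads polyunsaturated fatty acids, was at 17 to 25 against 43.5 to 127 CPM (log2 fold change −1.99 ± 0.19).

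Other metabolic lists split. Of 48 hypoxia and glycolysis genes tested, 26 were called higher and 6 lower, and 8 and 3 were separated (16.7 and 6.25%). With the intrahepatic tumors pooled 13 of the hypoxia and glycolysis genes were called higher. STC2, a secreted stanniocalcin, was at 2.38 to 17.6 against 0 to 0.995 CPM, and SLC16A3, the lactate exporter, at 508 to 714 against 118 to 311 CPM (log2 fold change 1.60 ± 0.18). Of 35 genes of serine synthesis and the ATF4 response, 7 were called higher and 15 lower, with 3 and 7 separated (8.57 and 20%), and VLDLR, a lipoprotein receptor, was at 0.0872 to 0.23 against 11.7 to 25.9 CPM. Of 53 NRF2, glutathione and redox genes, 22 were called higher and 12 lower, and 8 and 7 were separated (15.1 and 13.2%). HMOX1, heme oxygenase, was at 19.7 to 31.7 against 0.599 to 6.84 CPM (log2 fold change 3.42 ± 0.23), AKR1C2, an aldo-keto reductase with near-identical neighbours, at 275 to 485 against 15.6 to 81.5 CPM, and MT1E, a metallothionein, at 0.0256 to 1.28 against 16.5 to 108 CPM. Of 75 xenobiotic enzymes and transporters, 21 were called higher and 37 lower, and 10 and 12 were separated (13.3 and 16%). ABCC5, an efflux pump, was at 15.7, 11.1, 14.2, 8.93 and 18.2 CPM in EGI-1, 118 to 327 CPM in HuCC-A1 and 51.2 to 95.4 CPM in HuCC-T1 (log2 fold change −3.22 ± 0.26, adjusted p = 1.77e-08). ALDH2, which clears acetaldehyde, was at 2.41 to 5.22 against 17.5 to 70.2 CPM (log2 fold change −3.15 ± 0.29), and ABCB1, the pump P-glycoprotein, was called lower (adjusted p = 9.48e-06) but was not separated, at 0 to 0.121 CPM in EGI-1, 3.77 to 11.5 CPM in HuCC-A1 and 0.0705 to 1.18 CPM in HuCC-T1. Of 50 channels and ion transporters, 19 were called higher and 15 lower, and 9 and 4 were separated (18 and 8%). KCNQ1, a potassium channel of epithelia (chr11:2444684-2849110, plus strand), was at 16.2 to 44.9 CPM in EGI-1 and 0.173 to 0.889 CPM elsewhere (log2 fold change 5.99 ± 0.25, adjusted p = 5.13e-12).

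Of 65 tested cell cycle genes, 24 were called higher and 7 lower, and 6 (9.23%) and 3 (4.62%) were separated, against 9.30 and 8.30% of all genes. MKI67, the proliferation marker, was at 151 ± 13.8 CPM in EGI-1 (SD, n = 5), 130.1 ± 42.4 CPM in HuCC-A1 and 201 ± 91.6 CPM in HuCC-T1, with a log2 fold change of −0.10 ± 0.21 that did not pass the test (adjusted p = 0.723). MYC did not pass it either (log2 fold change −0.65 ± 0.30, adjusted p = 0.0778), but passed as lower without HuCC-A1 replicate 4 (adjusted p = 0.0373), without HuCC-T1 replicate 3 (0.0479) and by DESeq2 (0.0471). MCM3 and MCM5, subunits of the replicative helicase, were separated at 145 to 221 against 56.4 to 113 CPM and at 113 to 192 against 40.1 to 81.3 CPM. CDKN1B, an inhibitor of the cycle, was at 43.4 to 50.6 against 65.7 to 104 CPM (log2 fold change −0.70 ± 0.11). Of 37 p53 targets, 12 were called higher and 13 lower, and 1 and 4 were separated (2.7 and 10.8%), with SPATA18, a mitochondrial quality gene, at 1.07 to 1.78 against 8.12 to 49.1 CPM. Of 22 stem and pluripotency genes, 8 were called higher and 7 lower, and 1 and 3 were separated (4.55 and 13.6%). SOX2 had no count in EGI-1 and was at 58.5 to 114 CPM in HuCC-A1 and 0.104 to 1.09 CPM in HuCC-T1, and POU5F1, which has many pseudogene copies, was at 4.23 to 8.05 against 8.52 to 23.1 CPM (log2 fold change −1.30 ± 0.26). Of 29 imprinted and cancer-testis genes, 6 were called higher and 14 lower, and 1 and 2 were separated (3.45 and 6.9%), with PHLDA2, an imprinted gene of placenta, at 97.4 to 212 against 10.8 to 49.4 CPM. Among 50 surface antigens that antibody therapies address, 22 were called higher and 17 lower, and 5 and 9 were separated (10 and 18%). MSLN, mesothelin, was at 617, 582, 415, 618 and 414 CPM in EGI-1 and 10.1 to 225 CPM elsewhere (log2 fold change 3.02 ± 0.31, adjusted p = 3.49e-07), and STEAP1, a membrane protein of the STEAP family, at 14.8 to 21.8 against 63.4 to 145 CPM.

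Of 56 CCA drivers and tumor suppressors tested, 18 were called higher and 19 lower, and 6 and 6 were separated (10.7 and 10.7%), near the shares of all genes. MTAP, which salvages adenine and methionine on chromosome 9 (chr9:21802543-21937651, plus strand), was at 25.4, 38.3, 27.3, 32.8 and 35.5 CPM in HuCC-A1, 186, 194, 184, 154 and 229.8 CPM in HuCC-T1 and 0, 0, 0, 0.0582 and 0 CPM in EGI-1, where it had 2 counts over all tumors. Several of its neighbours on both sides were low in EGI-1 as well. IFNE and IFNA1 had 137 and 5 counts over the EGI-1 tumors, DMRTA1 had 0 against 2710 in HuCC-A1 and 1906 in HuCC-T1, and the non-coding LINC01239 had 0 against 1918 and 1086. The cell cycle inhibitors CDKN2A and CDKN2B, between MTAP and DMRTA1, were not separated because HuCC-A1 lacked them too, with 0 and 2 counts in EGI-1, 0 and 0 in HuCC-A1, and 26358 and 29970 in HuCC-T1. Between LINC01239 and TUSC1 the non-coding ENSG00000283982 was separated as higher, with 913 counts in EGI-1, 106 in HuCC-A1 and 139 in HuCC-T1. The genes at both ends of this stretch were present in EGI-1, KLHL9 at 41.6 ± 8.56 CPM and TUSC1 at 19.2 ± 3.86 CPM (SD, n = 5). KLHL9 was nevertheless separated as lower, at 30.2 to 52.6 CPM in EGI-1 against 56.2 to 85 CPM elsewhere, and TUSC1 was not separated. The neighbours, apart from MTAP, were chosen after their values were seen, and no copy number was measured. RNF43 and IDH1, a driver of intrahepatic CCA when mutated, were higher, IDH1 at 128 to 159 against 56.2 to 91.4 CPM (log2 fold change 0.95 ± 0.12).

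Separated genes were spread unevenly over the chromosomes, which the rule did not use. On chromosome 7, 28.4% of the tested coding genes were separated as lower and 4.6% as higher, against 9.47 and 11% of all coding genes. Chromosome 15 (21.5% lower and 2.3% higher), chromosome 3 (18.1 and 4.3%) and the X chromosome (15.5 and 2.4%) also tended to lower genes, and chromosome 22 (24.1% higher and 2.0% lower), chromosome 17 (19.8 and 2.5%) and chromosome 19 (19.5 and 2.7%) to higher ones. Per tumor, the median deviation of the chromosome 7 genes from the mean of the 3 models, centred on the tumor's own median, was −0.48 to −0.43 on the log2 scale in EGI-1, 0.26 to 0.31 in HuCC-A1 and 0.11 to 0.22 in HuCC-T1. For chromosome 22 it was 0.22 to 0.40, −0.19 to −0.03 and −0.45 to −0.01. All EGI-1 tumors lay below all other tumors for 7 of 23 chromosomes (3, 5, 7, 12, 14, 15 and X) and above them for 4 (6, 17, 19 and 22). All HuCC-A1 tumors lay above all others on chromosomes 1, 7, 9, 12, 15, 16, 18 and 20 and below them on 2, 8, 10 and 11. All HuCC-T1 tumors lay above all others on chromosomes 8, 10, 14 and X and below them on 1, 6, 16 and 19. Such separation was thus not particular to EGI-1. The X chromosome was lowest in EGI-1 but differed mostly in HuCC-T1, with ranges of −0.37 to −0.26, −0.24 to −0.18 and 0.52 to 0.62. Chromosome 19 was highest in EGI-1 but also differed mostly in HuCC-T1, with wide ranges of 0.16 to 0.50, 0.002 to 0.12 and −0.71 to −0.02. For chromosome 17 the ranges were 0.20 to 0.26, −0.15 to −0.01 and −0.34 to −0.04. EGI-1 replicate 1 was the highest and HuCC-T1 replicate 2 the lowest tumor on each of chromosomes 17, 19 and 22.

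Some neighbouring genes were separated together. Runs of at least 5 neighbouring tested coding genes, all separated in one direction, numbered 20 among higher and 15 among lower genes, and held 212 of the 3043 separated coding genes (6.97%). The longest held 15 genes on chromosome 19 (chr19:19785839-21852125), from ZNF506 to ZNF43, all zinc finger genes and all higher. Of the 225 tested coding genes on chromosome 19 with a zinc finger name, 67 (29.8%) were separated as higher and 8 (3.56%) as lower. Of the 270 on other chromosomes, 16 (5.93%) were separated as higher and 37 (13.7%) as lower, and among the coding genes of chromosome 19 without such a name the shares were 16.8 and 2.53%. These genes resemble each other in sequence, so their counts depend on how reads with several matches were treated. On chromosome 7 a run of 9 lower genes (chr7:55019021-56080670) began with EGFR and held LANCL2, VOPP1, ZNF713, NIPSNAP2, MRPS17, PSPH, CCT6A and SUMF2, with a median of −1.51, and a run of 8 lower genes went from MTERF1 to RBM48 (chr7:91692008-92538005, median −1.69). On chromosome 17 a run of 8 higher genes went from HOXB4 to HOXB13 (chr17:48575513-48729178). On chromosome 11 a run of 8 higher genes from TH to KCNQ1 (chr11:2163929-2849110) held ASCL2, a transcription factor of intestinal stem cells, and CD81. On chromosome 10 a run of 7 higher genes (chr10:4786629-5499555) held AKR1C1, AKR1C2 and AKR1C3.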

How the data were processed

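RNA of 15 tumors was analysed, 5 for each of 3 models, with groups taken from the sample labels. The authors deposited raw counts per gene for 58735 genes. The submitters' processing notes name CASAVA, HISAT2 2.0.5, featureCounts 1.5.0-p3 and the build GRCh38. Not given in the sources used here are the annotation, the strand setting and whether reads of mouse cells were removed. All identifiers are in GENCODE release 29, which gave coordinates and gene types, and 58207 have a symbol in the gene name table.

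Tests used edgeR 4.0.16 (R 4.3.3). Libraries were scaled by TMM, low genes were removed by filterByExpr with the models as groups, and a quasi-likelihood model with a mean per model left 12 residual degrees of freedom. Its p-values were adjusted by Benjamini-Hochberg over 21019 genes. The common biological coefficient of variation was 0.338. CPM used TMM-scaled totals. All 30 pairs of replicates differed by more than sampling error (chi-square of at least 33.6 per degree of freedom), so none was merged. Alternatives were RLE factors, no filter, at least 10 counts per library, DESeq2 1.42.0, limma-voom (limma 3.58.1), pooled intrahepatic tumors, a replicate block, thinning, no mitochondrial genes, glmTreat at a fold of 1.5, a gap of at least 1, plain library totals and leaving out each tumor. The members and the 47 gene lists were chosen with earlier results of these data known. Named genes were the 15 coding genes with the widest gap in each direction, for each list the 3 widest in its main direction and 1 in the other, and those the study names for its pathways, with some left out for length and some not reported here. Others, among them KRT8, KRT19, SOX9, VIM, TP63, the genes on or off in EGI-1 only, members of chromosome runs and genes named without values, were chosen after their values were seen. Of 154 genes with values, 55 share exon bases with another annotated gene, up to 73.9% in RNF43, and reads of such pairs may be split between them. Promoter windows came from RefSeq's table and figures from matplotlib 3.10.9.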

Additional observations from a re-analysis of the deposited data

Results flagged for a closer look

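In 468 groups of 5 tumors, the values of a gene or library in 1 model, a tumor was marked when its distance to the nearest other tumor took more than 0.71 of the range of the group. This marked 43 groups (9.19%). The 468 include groups in which every tumor had fewer than 10 counts, which were not checked, so the share among checked groups is higher. Chance marks about 1 in 20 where values are normally distributed, whereas CPM was used here without a log. Genes of a tumor are also not independent of each other. Each is given as the CPM of the marked tumor, against that of the tumor nearest to it.

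HuCC-T1 replicate 5 was highest of its model in C11orf21 (1.4 CPM against 0.187 CPM), C1R (104 CPM against 31 CPM), COL9A3 (11 CPM against 3.03 CPM) and MCAM (5.54 CPM against 2.13 CPM). HuCC-T1 replicate 5 was highest of its model in MKI67 (361 CPM against 183 CPM), MYC (120.4 CPM against 44 CPM), NOTCH1 (43.3 CPM against 17.8 CPM) and NRG1 (73.9 CPM against 13.9 CPM). HuCC-T1 replicate 5 was highest of its model in SREBF1 (106 CPM against 68.6 CPM) and TH (1.34 CPM against 0.336 CPM). HuCC-T1 replicate 5 was lowest of its model in VLDLR (11.7 CPM against 23.5 CPM). HuCC-A1 replicate 2 was highest of its model in CCL20 (17.2 CPM against 4.98 CPM), CLDN18 (0.999 CPM against 0.532 CPM), EFNB1 (182 CPM against 115 CPM) and KRT7 (1697 CPM against 1050.1 CPM). HuCC-A1 replicate 2 was highest of its model in KRT81 (95.6 CPM against 36.8 CPM), MT1E (108 CPM against 31.7 CPM) and SOX9 (73 CPM against 40.7 CPM). HuCC-T1 replicate 1 was highest of its model in KRT18 (1511 CPM against 683 CPM), KRT20 (5.01 CPM against 1.31 CPM), MRPS17 (10.1 CPM against 8.43 CPM) and PHLDA2 (49.4 CPM against 22.1 CPM). HuCC-T1 replicate 1 was highest of its model in POSTN (3283 CPM against 783 CPM) and VIM (651 CPM against 349 CPM). HuCC-T1 replicate 1 was lowest of its model in IL31RA (6.16 CPM against 12.3 CPM). EGI-1 replicate 5 was highest of its model in NDNF (10.8 CPM against 3.52 CPM), NEO1 (1.07 CPM against 0.518 CPM) and STAT3 (224 CPM against 197 CPM). EGI-1 replicate 5 was lowest of its model in CCT6A (141 CPM against 178 CPM). HuCC-A1 replicate 1 was highest of its model in KLHL9 (83.2 CPM against 64.7 CPM) and NTSR1 (0.354 CPM against 0.0532 CPM). HuCC-A1 replicate 1 was lowest of its model in IFNE (5.45 CPM against 12.3 CPM) and PROX1 (0.283 CPM against 0.644 CPM). EGI-1 replicate 2 was highest of its model in COL4A6 (0.302 CPM against 0.0582 CPM), COL9A3 (138 CPM against 86 CPM) and EVPL (776 CPM against 702 CPM). HuCC-A1 replicate 5 was highest of its model in NOTCH1 (485 CPM against 227 CPM), SEMA3E (93.8 CPM against 45.1 CPM) and VGLL3 (15.3 CPM against 4.85 CPM). EGI-1 replicate 1 was highest of its model in WNT7A (2.07 CPM against 0.514 CPM). HuCC-A1 replicate 3 was highest of its model in POSTN (0.719 CPM against 0.368 CPM). HuCC-A1 replicate 4 was lowest of its model in MCAM (1.32 CPM against 3.83 CPM). HuCC-T1 replicate 4 was highest of its model in P3H2 (86 CPM against 67.2 CPM).

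NOTCH1 was lower in EGI-1 than in HuCC-A1 tumors and higher than in HuCC-T1 tumors, each past the threshold. The difference between those contrasts, which is that of HuCC-A1 against HuCC-T1, was 3.58 on the log2 scale (edgeR adjusted p = 4.33e-07). These contrasts share the EGI-1 tumors.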

How the results depend on the processing

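The numbers of called genes stayed within 1.5 times those reported, and within the same direction, with RLE factors, with DESeq2, with limma-voom, with thinned libraries, without mitochondrial genes, with no filter and with at least 10 counts in every library. With the 10 intrahepatic tumors pooled as 1 group, 3189 genes were called higher and 4715 lower, and the cause was not tested. Against a fold change of 1.5 (glmTreat), which asks for a larger change by construction, 2999 were called higher and 3302 lower. A gap of at least 1 left 357 separated genes higher and 285 lower, again by construction. The number of genes separated stayed within 1.5 times under RLE factors, other filters, thinning, plain library totals and leaving out mitochondrial genes. Leaving out each tumor gave 5177 to 5876 genes called higher and 5299 to 6034 called lower, and 2030 to 2290 separated as higher and 1762 to 2019 as lower, since separation of fewer tumors is easier to meet.

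Replicate numbers are shared between the models but did not pair the tumors. Of 15 pairs with the same number, 6 had a correlation of their deviations above 0.1, with a lowest of −0.162 and a highest of 0.321. With replicate number as a block, 5541 genes were called higher and 5540 lower.

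Of 5179 values of 211 genes under the alternatives, 5146 kept their direction and their side of the threshold, 13 lost the call, 17 gained it and 3 turned direction, and these last were of genes that had not been called. With single tumors left out LATS1 ranged from −0.151 to 0.014 (positive without EGI-1 replicate 2) and MKI67 from −0.156 to 0.062 (positive without HuCC-A1 replicate 1 or HuCC-T1 replicate 5). Gains were of NOTCH1, MYC, CDKN2A and CDKN2B, of which the last pair had 2 counts or fewer in 2 models. The losses came with pooled intrahepatic tumors (among them CD81, GGT1, HOXB13, ITGB4 and SOX9) or against a fold of 1.5 (among them CDKN1B, ITGB4, SOX9 and YAP1). Of 2300 counts of called genes per list, 2173 stayed within 1.5 times and 127 moved further. Of these, 37 were lower with the intrahepatic tumors pooled, 33 against a fold of 1.5 and 30 with at least 10 counts in every library, where fewer genes were tested. Leaving out a tumor moved 14, all in the lists of integrins, biliary epithelium, ERK targets, endothelium and adipocytes. In simulated counts of these libraries 61 of 100 genes with a 2-fold and 97 of 100 with a 4-fold change were called, and 5 of 20170 unchanged genes. The simulation changed only those few genes and gave all others the same mean in the 3 models. In the data 53.8% of the tested genes were called. The adjusted p is stricter where few genes change, so the simulated rates do not give the share of changes missed in the data.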
